A study of Mus musculus with 15 samples.

Results

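The signature of cross-presenting dendritic cells was followed over 8 genes, Xcr1, Clec9a, Cadm1, Wdfy4, Cd8a, Cd207, Rab43 and Sec22b, which were taken by symbol from the 38924 gene identifiers counted. All 8 passed the filter on low counts and were among the 14456 genes tested. Bulk RNA was sequenced from 5 murine mononuclear phagocyte subtypes, each with 3 libraries from naïve C57BL/6 mice aged 6 to 8 weeks, and each library was a pool of 5 female mice. The subtypes were splenic CD8+ DCs (CD8+, CD11c+, MHCII+), splenic CD4+ DCs (CD4+, CD11c+, MHCII+), LN CD103+ DCs (CD103+, CD11c+, MHCII+), LN CD11b+ DCs (CD11b+, CD11c+, MHCII+) and splenic Ly6C+ monocytes (Ly6C+, CD11b+). CD8+ and CD103+ DCs stand for the DC1 lineage, CD4+ and CD11b+ DCs for DC2. The LNs drained the lung, came from other cohorts than the spleens, and only cells with high MHC class II, the migratory DCs, were sorted from them. An organ difference is therefore also a difference of cohort and gate, and these cannot be told apart. CD8 protein was a sort marker of the splenic DC1, so that a high Cd8a level there follows from the sort.

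Cross-presentation is the display of peptides from engulfed material on MHC class I, which lets a DC prime CD8+ T cells against antigens it did not make. DC1 are the cells best known for it, and they depend on the transcription factors Irf8 and Batf3. Part of the signature acts at the cell surface: Xcr1 is the receptor for the chemokine XCL1 of T and NK cells, Clec9a (DNGR-1) binds actin exposed on dead cells, Cadm1 is an adhesion molecule of the nectin-like family, Cd8a encodes the CD8 alpha chain and Cd207 the lectin Langerin. The others act inside the cell: Wdfy4 is a BEACH domain protein required for cross-presentation of cell-associated antigen, Rab43 is a small GTPase of vesicle transport, and Sec22b is a SNARE protein of the endoplasmic reticulum and Golgi that has been placed on the route to the phagosome.

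RefSeq promoters (GRCm38.p6, 250 bases before to 50 after the start site) were found for 7 of the 8 genes, all but Cadm1. They were searched on both strands for 4 motifs of transcription factors. The motifs were TGANTCA (AP-1 and BATF), GAAANNGAA (IRF), GGAANNGAA (PU.1 with IRF) and TGGGAA (RBPJ), held by 7.81%, 8.56%, 8.24% and 25.6% of 32851 promoters, respectively. The 4 promoters below are shown because they hold a match in the window next to the annotated start of a gene whose level is followed here, 3 of them from genes with lower levels in LN DC1 and Sec22b as the gene without such a difference. Matches are in capitals, and each sequence is written 5′ to 3′ on the strand of its gene. They lie at chr6:129408612-129408911 (Clec9a, plus strand), chr6:71373177-71373476 (Cd8a, plus strand), chr6:83677808-83678107 (Cd207, minus strand) and chr3:97900977-97901276 (Sec22b, plus strand).
Clec9a: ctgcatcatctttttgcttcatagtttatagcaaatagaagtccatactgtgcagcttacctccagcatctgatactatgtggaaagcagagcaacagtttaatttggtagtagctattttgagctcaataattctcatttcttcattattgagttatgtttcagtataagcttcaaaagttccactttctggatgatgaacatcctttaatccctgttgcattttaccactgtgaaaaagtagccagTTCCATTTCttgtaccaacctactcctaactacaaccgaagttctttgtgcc
Cd8a: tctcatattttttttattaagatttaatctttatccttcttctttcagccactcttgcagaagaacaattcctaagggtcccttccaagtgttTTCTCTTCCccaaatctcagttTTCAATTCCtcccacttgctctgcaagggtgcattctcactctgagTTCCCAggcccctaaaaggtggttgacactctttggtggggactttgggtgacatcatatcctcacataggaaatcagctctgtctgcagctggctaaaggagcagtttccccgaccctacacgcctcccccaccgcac
Cd207: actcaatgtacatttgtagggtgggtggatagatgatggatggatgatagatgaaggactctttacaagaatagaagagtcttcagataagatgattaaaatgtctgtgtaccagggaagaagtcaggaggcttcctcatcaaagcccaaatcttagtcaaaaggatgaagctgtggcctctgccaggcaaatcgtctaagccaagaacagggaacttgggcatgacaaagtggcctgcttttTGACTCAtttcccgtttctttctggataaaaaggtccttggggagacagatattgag
Sec22b: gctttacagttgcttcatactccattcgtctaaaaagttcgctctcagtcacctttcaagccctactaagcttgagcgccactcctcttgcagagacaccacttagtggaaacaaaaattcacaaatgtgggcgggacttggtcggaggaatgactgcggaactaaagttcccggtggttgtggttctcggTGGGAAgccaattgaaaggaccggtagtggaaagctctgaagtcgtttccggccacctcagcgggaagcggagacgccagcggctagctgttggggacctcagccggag

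Clec9a held a single GAAANNGAA, on the opposite strand across the start site. Cd8a held GGAANNGAA at 2 places and TGGGAA at 1, all on the opposite strand, and Cd207 held TGANTCA in the bases directly before the start. The Sec22b match was TGGGAA, and 1 of 4 annotated Rab43 promoters held GGAANNGAA. None of the 4 motifs was in the windows of Xcr1 or Wdfy4, which says only that these letters are not in those 300 bases.

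Libraries held between 4531243 and 10233914 counts (median 7331110), and 15222 to 17693 genes were detected in each. Levels of a gene across libraries are given in CPM (counts scaled to library size and by trimmed means of M values, TMM), and levels of different genes are set side by side only in TPM, which allow for gene length. Group values are mean ± SD of 3 pools. Tests are edgeR quasi-likelihood tests over all 14456 genes with Benjamini-Hochberg adjustment, called at an adjusted p of at most 0.05, and they measure the spread between pools. LN CD103+ DC replicate 1 stood apart from the other two. It had 257 CPM summed over 7 B cell markers against 16.5 and 28.8 CPM. Of the 8 genes, 6 were highest in that library among LN CD103+ DCs, all but Cd207 and Sec22b, by the most for Xcr1 and Wdfy4. The methods describe a gate negative for lineage markers, and the part of B cells in these values was not tested.

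DC1 in the LN were compared first with DC1 in the spleen, the question being how much of the signature the migratory cells held. Lower levels in LN CD103+ DCs were called for 7 of the 8 genes, against 21.8% of all genes tested, and higher levels for 0 of 8 (23.8% of all genes; Sec22b also had an unadjusted p of 0.729). The median log2 fold change was -3.27 over the 8 and 0.0048 over all genes. The study had named Xcr1, Cadm1, Clec9a and Wdfy4 for murine splenic CD8+ DCs. Its marker rankings used these same libraries and set each subtype against the others. The count of falls is therefore a description and no independent support for the signature. The order from the largest fall was Cd8a, Wdfy4, Xcr1, Cd207, Clec9a, Cadm1 and Rab43, with Sec22b near 0. Without LN CD103+ DC replicate 1 each of these 7 was still called lower. In bulk RNA, fewer cells with a transcript and less of it per cell cannot be told apart.

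**Figure D1:**
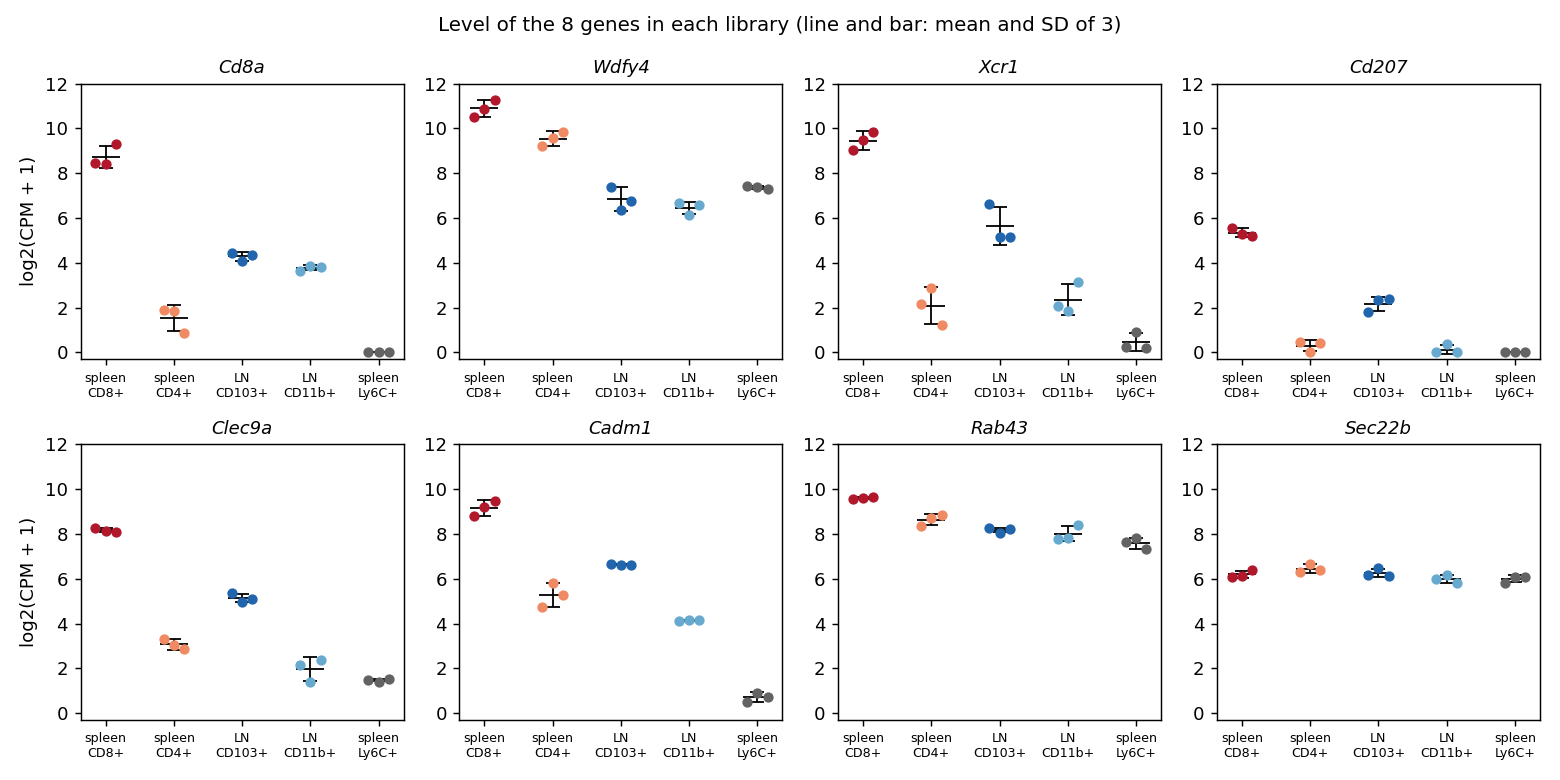
Level of each gene as log2(CPM + 1) in the 15 libraries, with 1 panel a gene and 3 points a subtype. The horizontal line is the mean of the 3 log2 values and the bar their SD. Splenic CD8+ DCs are highest in every panel but that of Sec22b, whose subtype means lie between 62.5 and 87.3 CPM.

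Cd8a (ENSMUSG00000053977, mm10 chromosome 6 from 71373427 to 71379171, plus strand) had the largest fall. In splenic CD8+ DCs it had 352, 344 and 626 CPM, in LN CD103+ DCs 20.5, 15.7 and 19.6 CPM. The ranges were far apart, and the LN libraries lay within 5 CPM of each other (log2 fold change -4.57, SE 0.31, with an adjusted p of 4.56e-09). The LN kept 4.22% of the splenic level, and Cd8a was the 144th most lowered of all genes tested. Since the spleen was sorted on CD8 and the LN on CD103, this difference holds the sort as well as the organ.

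The surface receptors were lower as well. Xcr1 (ENSMUSG00000060509, chromosome 9 from 123852315 to 123862029, minus strand) had 516, 710.3 and 920.3 CPM in the splenic libraries. In the LN it had 96.8, 34.1 and 34.6 CPM, so that replicate 1 was well above the other two, yet still under each splenic library. The LN kept 7.71% of the splenic level on average, and between 3.70% and 18.8% across single pairs of libraries; without replicate 1 the log2 fold change moved from -3.70 (standard error 0.46) to -4.38.

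Clec9a (ENSMUSG00000046080, chromosome 6 from 129408862 to 129424764, plus strand) varied little within the groups. It had 309, 283 and 271 CPM in the spleen against 39.6, 30.3 and 33.6 CPM in the LN, and the groups were far apart. The LN kept 12.01% (log2 fold change -3.06, SE 0.23, with an adjusted p of 5.01e-09). Its exons share 5.59% of their bases with Clec1b, a neighbour on the same strand, and a read in that stretch was counted for each gene. Clec1b was itself lower in the LN (log2 fold change -2.14).

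Cadm1 (ENSMUSG00000032076, chromosome 9 from 47530173 to 47857637, plus strand) kept the most of the surface genes, 16.96%. It had 439.9, 585 and 712 CPM in splenic CD8+ DCs against 100.2, 96.8 and 97.6 CPM in LN CD103+ DCs, where the libraries were almost equal. Cd207 (ENSMUSG00000034783, chromosome 6 from 83671207 to 83677857, minus strand) had the fewest counts of the 8. It had 46.5, 37.6 and 35.7 CPM in the spleen and 2.51, 3.98 and 4.14 CPM in the LN, or 18, 34 and 25 counts. Its LN level was 8.87% of the splenic level (log2 fold change -3.49, SE 0.42, with an adjusted p of 3.62e-06). Cd207 was the only surface gene of the 8 with its lowest LN CD103+ value in replicate 1.

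Of the genes that act inside the cell, Wdfy4 (ENSMUSG00000051506, chromosome 14 from 32959547 to 33185508, minus strand) had the largest loss. It had 1469.6, 1868 and 2501 CPM in the splenic DC1 libraries against 168, 80.9 and 108 CPM in the LN, which left 6.11% of the splenic level. In TPM it went from the most abundant of the 8 in splenic CD8+ DCs, at 444 ± 115 TPM, to 25.6 ± 9.72 TPM. The log2 fold change was -4.03 with every library and -4.36 without LN CD103+ DC replicate 1.

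Rab43 (ENSMUSG00000030055, chromosome 6 from 87788853 to 87812164, minus strand) was lower by less. It had 745, 775 and 797 CPM in the spleen and 302, 265 and 298 CPM in the LN, without overlap, and kept 37.4% of the splenic level (log2 fold change -1.42, SE 0.20, with an adjusted p of 1.48e-05). Sec22b (ENSMUSG00000027879, chromosome 3 from 97901190 to 97923276, plus strand) had 66.5, 68.3 and 82.4 CPM in the spleen and 70.8, 86.8 and 69.4 CPM in the LN. These ranges overlapped, and no difference was called (log2 fold change 0.06, 95% confidence interval -0.32 to 0.45, adjusted p = 0.801).

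The order of the falls was tested by the log2 ratio of pairs of the 8 genes within a library, with an exact 2-sided permutation test of 3 against 3, which cannot give a p under 0.1. The test can therefore separate no pair at 0.05, and the order is a description. The p was 0.2 for Cd8a against Wdfy4, 0.5 for Wdfy4 against Xcr1, 0.6 for Xcr1 against Cd207, 0.4 for Cd207 against Clec9a and 0.2 for Clec9a against Cadm1. Cadm1 against Rab43 and Rab43 against Sec22b reached 0.1, the smallest p this test allows, or 0.14 adjusted over the 28 pairs. In 20 of the 28 pairs the ratios of the DC1 groups did not overlap, which is the same event as a p of 0.1. The share among pairs of other genes was not taken, so this count lends the order no weight. Leaving out splenic CD8+ DC replicate 3 or any LN CD103+ DC library moved Xcr1 by a place, with Cd207 or Wdfy4, and left the other 6 in theirs.

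By TPM the 8 genes also changed places. In splenic CD8+ DCs they ran from Wdfy4 (444 TPM), Xcr1 (385 TPM), Cd8a (339 TPM) and Rab43 (336 TPM) over Clec9a (210.2 TPM) and Cadm1 (143 TPM) to Cd207 (63.0 TPM) and Sec22b (46.9 TPM). In LN CD103+ DCs, Rab43 (118 TPM) and Sec22b (46.0 TPM) led, and Xcr1, Wdfy4, Clec9a and Cadm1 lay together between 22.9 and 28 TPM. Cd8a (13.4 TPM) and Cd207 (5.23 TPM) came last. Among the 14456 genes ranked by TPM, Wdfy4 went from place 242 to 4428, and Sec22b from 2792 to 2776.

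The comparison of DC1 with DC2 within an organ asks how far the signature marks the lineage. In the spleen, 7 of the 8 genes were higher in CD8+ than in CD4+ DCs, against 13.1% of all genes (median log2 fold change 4.57 over the 8). This count too is only a description, since the study's markers of splenic CD8+ DCs came from these libraries. The largest difference was that of Cd8a, with 2.71, 2.56 and 0.832 CPM in CD4+ DCs (log2 fold change 7.72, SE 0.37, with an adjusted p of 9.37e-10), again a gene of the sort. Cd207 had 3, 0 and 2 counts in the 3 CD4+ DC libraries and differed by 7.21 (SE 0.58, with an adjusted p of 1.25e-07).

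Rab43 was called too, although its levels were less far apart. It had 325, 424 and 456 CPM in splenic CD4+ DCs, all below the CD8+ libraries (log2 fold change 0.94, SE 0.20, with an adjusted p of 1.84e-03). Sec22b had 76.8, 101.4 and 83.6 CPM in CD4+ DCs, overlapping the CD8+ libraries, and was not called (-0.27, 95% confidence interval -0.65 to 0.12, adjusted p = 0.297). Wdfy4 and Rab43, the genes of the 8 with the smallest called lineage differences in the spleen, were abundant in both splenic subtypes, with 181 ± 52.3 TPM of Wdfy4 and 181 ± 38.9 TPM of Rab43 in CD4+ DCs.

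In the LN, 4 of the 8 genes were higher in CD103+ than in CD11b+ DCs, against 5.22% of all genes, and 4 were not called. The 4 were the receptors Xcr1, Clec9a and Cd207 and the adhesion molecule Cadm1. Clec9a had 3.44, 1.61 and 4.20 CPM in LN CD11b+ DCs, all far below LN CD103+ DCs (log2 fold change 3.50, adjusted p = 9.77e-08). Cadm1 had 16.1, 16.6 and 16.8 CPM there (2.57, adjusted p = 1.60e-06). For Xcr1 these libraries had 3.23, 2.64 and 7.74 CPM (3.69, adjusted p = 6.44e-05), and the difference was 3.00 without LN CD103+ DC replicate 1 and 4.21 without LN CD11b+ DC replicate 3. Cd207 had 2 counts over the 3 LN CD11b+ DC libraries, both in replicate 2, against 77 in LN CD103+ DCs, a ratio of 36.5 (95% counting interval 9.78 to 307).

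The other 4 did not separate the LN subtypes at this depth. Wdfy4 had 99.3, 69.6 and 93.3 CPM in LN CD11b+ DCs, within the range of LN CD103+ DCs but for the lowest library (log2 fold change 0.44, adjusted p = 0.309). The difference was 0.11 without LN CD103+ DC replicate 1. Cd8a had 11.5, 13.5 and 13.04 CPM in LN CD11b+ DCs, just under the CD103+ libraries (0.55, adjusted p = 0.244). Rab43 had 219, 228 and 336 CPM (0.15, adjusted p = 0.719), and Sec22b had 62.6, 69.8 and 55.0 CPM (0.28, 95% confidence interval -0.11 to 0.66, adjusted p = 0.379), both overlapping LN CD103+ DCs.

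**Figure D2:**
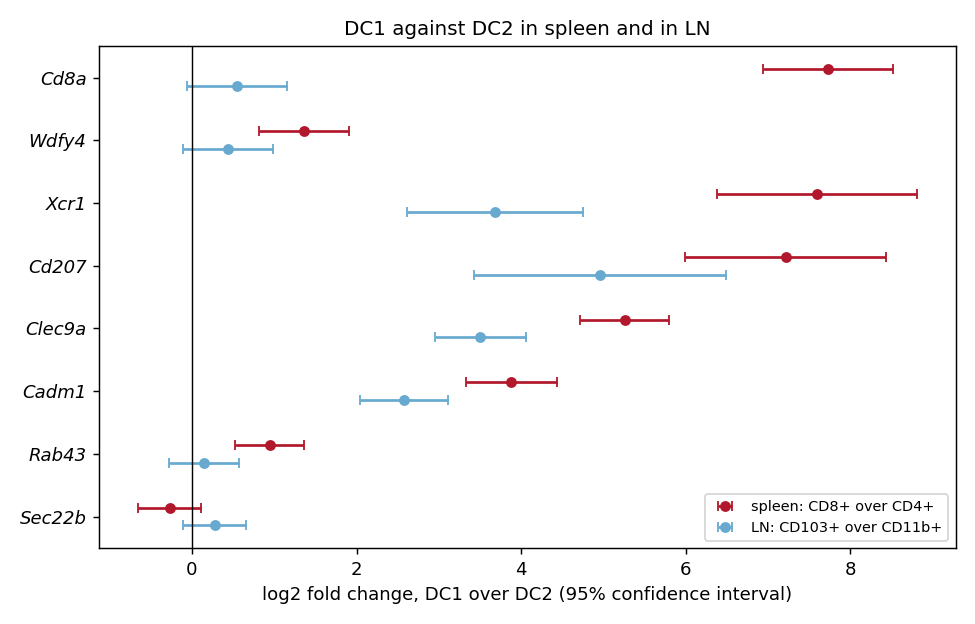
Log2 fold change of DC1 over DC2 for the 8 genes in the spleen (CD8+ over CD4+) and in the LN (CD103+ over CD11b+), as points with 95% confidence intervals that are not adjusted for the number of genes. The splenic point lies to the right of the LN point for every gene but Sec22b, and the LN intervals of Cd8a, Wdfy4, Rab43 and Sec22b cross 0.

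The same comparison of organs in DC2 gave calls in both directions. LN CD11b+ DCs had lower levels than splenic CD4+ DCs of 4 of the 8 genes, against 13.8% of all genes, and a higher level of 1, against 19.3%. Wdfy4 fell most, from 595, 750.1 and 928 CPM to 99.3, 69.6 and 93.3 CPM (log2 fold change -3.12, SE 0.28, with an adjusted p of 1.21e-07). The falls of Clec9a (-1.30, adjusted p = 1.19e-03) and Cadm1 (-1.25, adjusted p = 7.40e-04) started from low levels of 7.46 ± 1.37 and 39.4 ± 15.1 CPM in the spleen.

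Rab43 was lower, by a log2 fold change of -0.62 (adjusted p = 0.0229), with overlapping libraries. This call was lost without splenic CD4+ DC replicate 2 or 3, without LN CD11b+ DC replicate 1 or 2, and when only the subtypes compared were fitted, where that of Clec9a was lost too (adjusted p = 0.0613). Sec22b had a log2 fold change of -0.48 (adjusted p = 0.0523) between groups that did not overlap, and it was -0.47 with an adjusted p of 0.0325 when the replicate number was a block. It also passed with RLE scaling, DESeq2 or limma, and without splenic CD8+ DC replicate 2 or 3 or splenic CD4+ DC replicate 1 (adjusted p = 0.0127 to 0.0487). Xcr1 (0.21, adjusted p = 0.818) and Cd207 (-1.23, adjusted p = 0.421) were not called, with a Cd207 count of 5 against 2 over 3 libraries.

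Cd8a was the gene that went the other way. It had 2.71, 2.56 and 0.832 CPM in splenic CD4+ DCs and 11.5, 13.5 and 13.04 CPM in LN CD11b+ DCs, without overlap (log2 fold change 2.60, adjusted p = 2.48e-05). Of the 9 tested genes of a list of T cell coreceptors and CD3, 7 were higher and 2, Cd4 and Cd5, lower in LN CD11b+ DCs, against 19.3% and 13.8% of all genes. Among the higher were Lck (4.81, adjusted p = 3.87e-07) and Cd3g (5.09, adjusted p = 2.43e-06).

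The difference between the organ effects was tested as the interaction of organ and lineage. The LN over spleen effect was lower in DC1 than in DC2 for 4 of the 8 genes, against 6.03% of all genes. These were Cd8a (difference of log2 fold changes -7.17, SE 0.46, with an adjusted p of 1.02e-07), Xcr1 (-3.91, adjusted p = 1.47e-03), Clec9a (-1.75, adjusted p = 3.20e-03) and Cadm1 (-1.31, adjusted p = 0.0174). In DC2, Cd8a rose and Xcr1 was not called. Both were low in splenic CD4+ DCs, at 2.03 and 3.71 CPM, and the part of these low levels in the differences was not tested. For Xcr1 the difference was -4.59 without LN CD103+ DC replicate 1. For Wdfy4 it was -0.92 (adjusted p = 0.119), and it was called, at -1.25 with an adjusted p of 0.0270, without that library. Cd207 (-2.25, adjusted p = 0.398, and -3.08 and called in limma), Rab43 (-0.80, adjusted p = 0.0802) and Sec22b (0.54, adjusted p = 0.197) were not called.

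**Figure D3:**
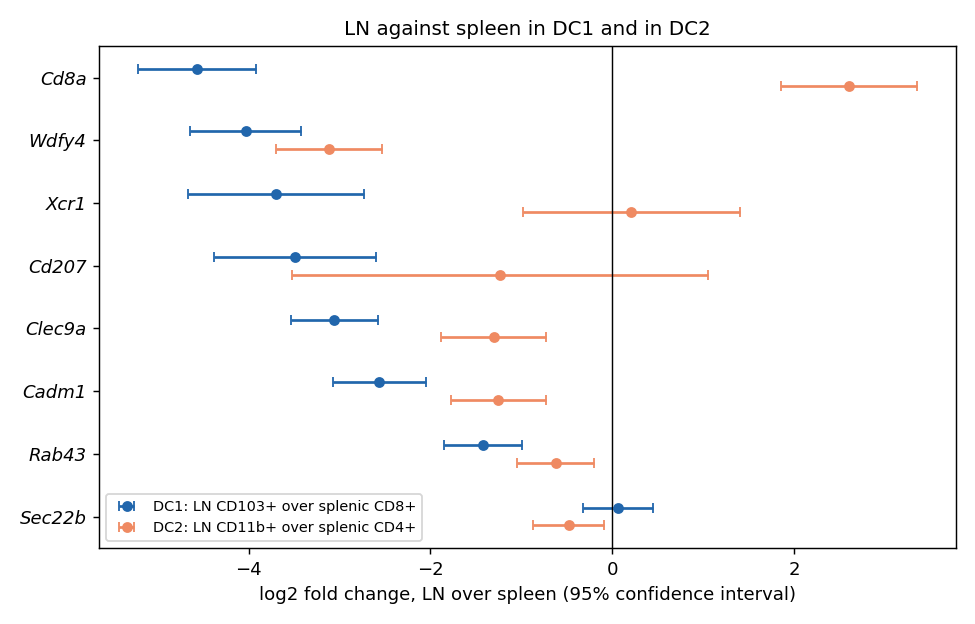
Log2 fold change of LN over spleen for the 8 genes in DC1 (CD103+ over CD8+) and DC2 (CD11b+ over CD4+), as points with 95% confidence intervals that are not adjusted for the number of genes. In DC1 all but Sec22b lie left of 0, from -4.57 for Cd8a to -1.42 for Rab43, and in DC2 Cd8a lies right of 0 at 2.60.

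Splenic Ly6C+ monocytes gave the level of the signature outside DCs. Cd8a and Cd207 had 0 counts in all 3 monocyte libraries, which allows up to 0.131 CPM over the group for counting error alone. By counts summed over the libraries of each group, Cd8a was at least 3425-fold higher in splenic CD8+ DCs and at least 140.5-fold higher in LN CD103+ DCs, and Cd207 at least 306-fold and 27.1-fold higher. Cadm1 had 0.393, 0.875 and 0.658 CPM and Xcr1 0.197, 0.875 and 0.132 CPM, both below every DC library. Wdfy4 stood out, with 170.3, 165 and 157 CPM. Monocytes had more of it than LN CD11b+ DCs (log2 fold change of LN CD11b+ DCs over monocytes -0.91, adjusted p = 7.84e-03) and were not separated from LN CD103+ DCs (-0.46, adjusted p = 0.141).

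Across the 5 subtypes, the mean CPM of Cadm1, Clec9a and Cd207 had the same order, from splenic CD8+ over LN CD103+, splenic CD4+ and LN CD11b+ DCs to monocytes. For Cadm1 every neighbour in it differed. Xcr1 had the same leading pair. LN CD11b+ and splenic CD4+ DCs did not differ for Xcr1 (adjusted p = 0.818), nor LN CD11b+ DCs and monocytes for Clec9a (adjusted p = 0.0509). For Cd207 the lower end rests on 5, 2 and 0 counts. There LN CD11b+ DCs were separated neither from splenic CD4+ DCs (adjusted p = 0.421) nor from monocytes (adjusted p = 0.170). For Cd8a, LN CD103+ and CD11b+ DCs did not differ and both were above splenic CD4+ DCs.

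Wdfy4 and Rab43 were lowest outside the splenic DCs. Wdfy4 ran from splenic CD8+ over splenic CD4+ DCs to monocytes, with LN CD103+ and CD11b+ DCs last. Rab43 ran from splenic CD8+ (772 ± 26.2 CPM) over splenic CD4+ (401 ± 68.5 CPM) to LN CD103+ (289 ± 20.4 CPM), LN CD11b+ (261 ± 64.9 CPM) and monocytes (194 ± 32.5 CPM), where no neighbours from splenic CD4+ DCs on were called different. For Sec22b only 1 of the 10 pairs of subtypes was called, splenic CD4+ DCs over monocytes (log2 fold change 0.47, adjusted p = 0.0442).

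Cd8a was set beside the genes of T cells, which use the CD8 alpha chain with the CD8 beta chain encoded by Cd8b1. In splenic CD8+ DCs, Cd8b1 had 21.8, 7.83 and 8.93 CPM, and the ratio of Cd8a to Cd8b1 in TPM was 7.33, 19.9 and 31.8. In LN CD103+ DCs, Cd8b1 had 9.35, 15.7 and 19.6 CPM, and the ratio was 0.994, 0.453 and 0.453. In LN CD103+ DC replicates 2 and 3 the raw counts of the genes were equal, at 134 and 118. In LN CD11b+ DCs the ratio was 1.08, 0.817 and 0.270. In splenic CD4+ DCs, with 1, 7 and 0 counts of Cd8b1, it was 9.51 and 0.971 in the first 2 libraries. The TPM of Cd8a was above that of Cd8b1 in each splenic CD8+ DC library, and the ratio was near or below 1 in the LN libraries.

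Other T cell genes were counted in the LN libraries too. Cd3g, a chain of the T cell receptor complex, had 17.03, 21.65 and 23.03 CPM in LN CD103+ DCs against 0.239, 0.135 and 0 CPM in splenic CD8+ DCs (log2 fold change 7.20). Lck, a T cell kinase, had 49.5, 42.1 and 56.0 CPM against 2.39, 0.270 and 0.802 CPM (5.37). Of the 9 tested genes of the list, 6 were higher and 0 lower in LN CD103+ DCs, against 23.8% and 21.8% of all genes. The summed level of the list's 10 genes was 117 to 164 CPM there and 102 to 185 CPM in LN CD11b+ DCs. It was 14.4 to 52.7 CPM in splenic CD8+ DCs and 0 to 0.680 CPM in monocytes. In splenic CD4+ DCs it was 108 to 212 CPM, most of it Cd4 (145 ± 51.0 CPM), their sort marker. The study's methods sorted cells negative for lineage markers, with antibodies to mouse CD3, NK1.1 and B220 among those listed, a gate meant to remove T, NK and B cells. The part of T cells in the LN level of Cd8a was not tested.

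**Figure D4:**
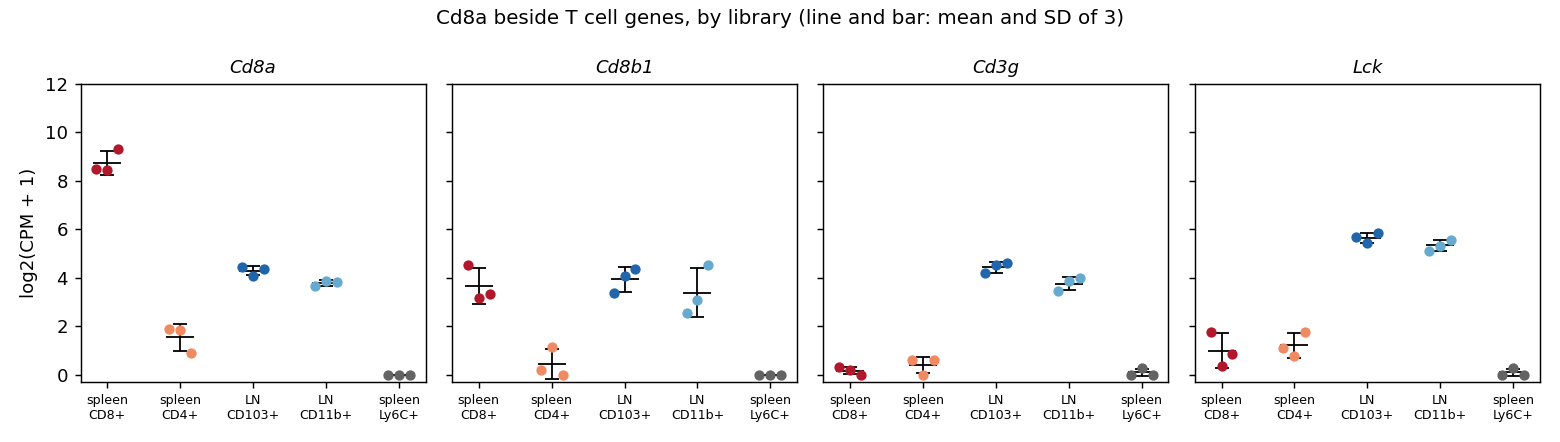
Level of Cd8a and of the T cell genes Cd8b1, Cd3g and Lck as log2(CPM + 1) in the 15 libraries, with 3 points a subtype, the mean as a line and the SD as a bar. Cd8a is highest in splenic CD8+ DCs, whereas Cd3g and Lck are highest in the LN subtypes.

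Other genes of the DC1 lineage were mostly lower too. Of 28 other genes listed for the DC1 lineage, 21 were lower and 3 higher in LN CD103+ than in splenic CD8+ DCs. Their median log2 fold change was -2.14, against 0.0048 over all genes, of which 21.8% were lower and 23.8% higher. The 3 higher were Il12b (3.36), Ly75 (2.04) and Id2 (0.98). Not every gene of the list is particular to DC1. In the spleen, 25 of the 28 were higher in CD8+ than in CD4+ DCs and 1 lower, against 13.1% and 14.4% of all genes. Itgax, lower in LN DC1, had 541 ± 17.5 CPM in splenic CD8+ and 853 ± 57.5 CPM in splenic CD4+ DCs. Tlr3, the receptor for viral RNA, had 282 ± 78.1 CPM in the spleen and 7.87 ± 6.14 CPM in the LN (-5.16), and the acid amidase gene Naaa had 1745 ± 566 and 71.0 ± 67.8 CPM (-4.62). Rab7b (-4.27) and the Notch receptor gene Notch4 (-4.26) followed. In LN CD103+ DC replicate 1 Tlr3, Naaa and Rab7b too stood above the other libraries, with Naaa at 149 against 23.5 and 40.9 CPM. Without it the log2 fold changes were -6.02 for Tlr3, -5.76 for Naaa, -5.12 for Rab7b and -5.55 for Notch4. In DC2 the same list had 12 genes higher and 2 lower in the LN, against 19.3% and 13.8% of all genes in that comparison. Of the lineage factors, Irf8 was lower in LN than in splenic DC1 (-2.02, adjusted p = 5.11e-06) and higher in LN than in splenic DC2 (2.20, adjusted p = 4.64e-06), with a difference of -4.22 between these effects (adjusted p = 1.15e-06), and Batf3 had 93.8 ± 4.52 and 83.6 ± 7.06 CPM (-0.17, adjusted p = 0.476). Itgae, which encodes the sort marker CD103, had 39.6, 20.8 and 21.04 CPM in LN CD103+ DCs against 71.8, 113 and 135 CPM in splenic CD8+ DCs (-1.97, adjusted p = 1.31e-03).

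The machinery of antigen export and loading held calls in both directions. Of 21 genes, 10 were higher and 6 lower in LN CD103+ DCs (median 0.49), against 23.8% and 21.8% of all genes. The proteasome activator gene Psme2 had 557 ± 72.0 CPM in the spleen and 2718 ± 338 CPM in the LN (2.29), and B2m, the light chain of MHC class I, rose by 2.03 on the log2 scale. Tapbp, which loads peptide onto class I, and the immunoproteasome subunit gene Psmb10 were higher by 1.73 and 1.72. The 6 lower genes were Pdia3 (-1.40), Sec61b (-0.87), Mpeg1 (-0.86), Calr (-0.77), Derl1 (-0.61) and Sec61a1 (-0.60).

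Of 13 tested genes of phagosome pH and oxidase, 7 were higher and 4 lower (median 1.19), against 23.8% and 21.8% of all genes. The proton channel gene Hvcn1 had 38.5 ± 33.5 CPM in the spleen and 308 ± 22.2 CPM in the LN (3.00), and the protease gene Lgmn was higher by 2.36. The oxidase subunit gene Cybb had 105.5 ± 51.6 and 18.4 ± 11.7 CPM (-2.52, or -3.16 without LN CD103+ DC replicate 1), and Ncf4, another subunit, had a log2 fold change of -2.49.

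The protein families of the 8 genes held calls in both directions, and their counts are to be read against the 23.8% of all genes that were higher and 21.8% that were lower. With few genes a list, the SNARE and Rab counts lay near or below these shares. Around Sec22b, 12 of 18 SNARE genes were not called, 4 were higher and 2 lower (median 0.01). The paralog Sec22a rose from 18.1 ± 2.22 to 59.4 ± 7.29 CPM (log2 fold change 1.71), whereas Bet1 and Vamp3 were lower (-1.37 and -1.29) and Vti1a was higher (0.97). Around Rab43, 2 of 13 Rab genes were higher and 3 lower (median -0.10), with Rab39 lower (-1.95) and Rab22a and Rab14 higher (1.501 and 0.70, the latter not called without LN CD103+ DC replicate 1). Around Wdfy4, 4 of 8 BEACH domain genes were lower and 2 higher (median -0.30), and the largest fall was that of Nsmaf (-2.34), followed by Wdr81 (-1.02) and Nbeal2 (-0.89), while Nbeal1 was higher (1.42).

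Around Clec9a, 4 of 11 genes of the Dectin-1 cluster and its signalling were higher and 4 lower (median 0.22). Clec2i (3.63) and the adaptor gene Card9 (1.29) were higher, and Clec1b and Clec1a lower (-2.14 and -1.88). Around Cadm1, 3 of 9 genes of nectins, nectin-like proteins and receptors that bind them were higher and 1 lower (median 1.18). Pvr, a ligand of DNAM-1, had 10.4 ± 0.826 CPM in the spleen and 193 ± 58.0 CPM in the LN (4.21). Xcl1, the ligand of Xcr1, had between 0 and 16 counts per subtype and was not tested. Ccr7, the receptor that guides DCs to the LN, had 91.0 ± 31.3 CPM in splenic CD8+ and 4028 ± 424 CPM in LN CD103+ DCs (5.47), and its ligands Ccl21a and Ccl19 were higher too (7.94 and 4.62).

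**Figure D5:**
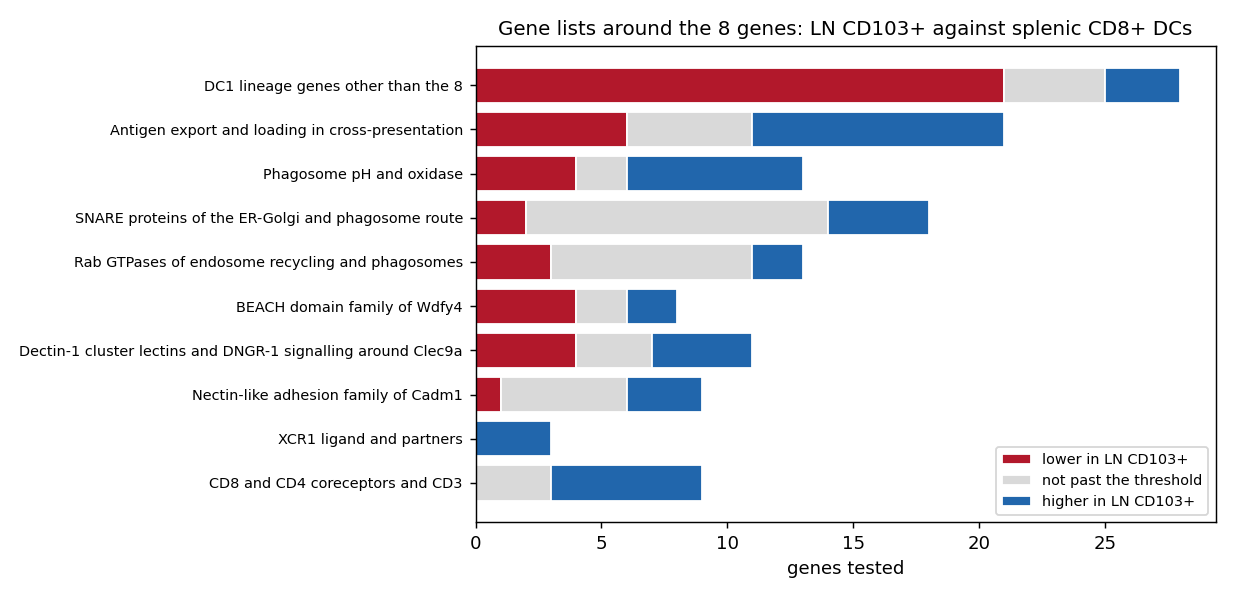
Number of genes of each list that were lower, not past the threshold or higher in LN CD103+ than in splenic CD8+ DCs (adjusted p of at most 0.05), with the genes tested on the horizontal axis and 1 bar a list. The bar of the other DC1 lineage genes is mostly lower (21 of 28), and those of the antigen export, phagosome and T cell lists hold more higher than lower genes.

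Markers of other cells were counted in the same comparison, in which 23.8% of all genes were higher and 21.8% lower. Migratory and mature DC markers were higher in 14 of 16 genes in LN CD103+ DCs and lower in 1 (median 4.599). The higher genes were led by the chemokine genes Ccl17, Ccl5 and Ccl22 and by Fscn1, which encodes an actin-bundling protein. The lower gene was Cd86 (-0.74, not called without LN CD103+ DC replicate 1), and Cd80 was not called (-0.19). Monocyte markers were lower in 7 of 12 and higher in 0, and DC2 markers lower in 7 of 12 and higher in 2. Of the plasmacytoid DC markers 3 of 6 were lower and 1 higher. B cell markers were higher in 4 of 7 and lower in 0, but higher in 1 and lower in 2 without LN CD103+ DC replicate 1. NK cell markers were higher in 4 of 5, but in 1 without LN CD103+ DC replicate 1 and in 2 without replicate 3. Their summed level was at most 22.3 CPM in any library. Of the 6 epithelial and Langerhans cell markers 3 were tested. Cldn1 (3.22) and Epcam (1.89) were higher and Cdh1 was not called (-0.22), beside the fall of the Langerin gene Cd207. The part of such cells in the falls of the 8 genes was not tested.

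Likeness to each of the 8 genes was measured by Pearson's r of log2 CPM over the 15 libraries, which fall into 5 subtypes and share their depth, so r mostly follows the subtype means. Xcr1 and Clec9a were alike (r = 0.965), as were Clec9a and Cd207 (0.967), and Wdfy4 was nearest to Rab43 (0.865). Sec22b was near none of the other 7, with r between 0.109 and 0.430. Outside the 8, the genes most like Xcr1 were Proser2 (0.972), Dbn1 (0.969) and Plpp1 (0.967), and those most like Clec9a were Fam149a (0.979), Clec1a (0.972) and Plpp1 (0.965). Cadm1 was most like Gpr4 (0.980), Rtl8c (0.967) and Fndc5 (0.966). Cd8a was most like Dbn1 (0.966), Fndc5 (0.965) and Plcb4 (0.962), and Cd207 most like Txndc15 (0.961), Fam149a (0.959) and Gm3336 (0.957).

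Wdfy4 was most like Gp2 (0.974), Morc2a (0.964) and Hnrnpab (0.963). Gp2 had 81.1 CPM in splenic CD8+ and 10.3 CPM in splenic CD4+ DCs and 0 counts in the other 3 subtypes. Rab43 was most like Rab39 (0.967), another Rab gene, then Sept6 (0.945) and Hells (0.938). The genes nearest to Sec22b were Mtrex (0.856), Acsf2 (0.842) and Gtf2f1 (0.834).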

How the data were processed

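RNA was sequenced from 15 mouse libraries of 5 sorted subtypes. Per the labels and methods, the authors aligned reads to mm10 with STAR 2.4.0j and counted genes with featureCounts (Subread 1.5.2). The deposited files hold raw gene counts, and TPM that the authors computed from the counts and gene lengths. Counting was unstranded, of uniquely mapped reads, and a read on several genes counted for each. No molecular identifiers were used. The counting interval of the Cd207 ratio and the limits for groups without counts cover counting error only. The confidence intervals of log2 fold changes come from the edgeR fit and include the spread between pools. Human and lung macrophage libraries were not analysed here.

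The 8 genes were matched by symbol (37607 of 38924 identifiers, 96.6%, have one). The members and all lists were chosen with earlier results of these data known. Counts were fitted with edgeR 4.0.16 (R 4.3.3) by the quasi-likelihood test with TMM scaling, 1 mean per subtype over all 15 libraries (10 residual degrees of freedom), and genes above 1 CPM in at least 3 libraries. p-values were adjusted by Benjamini-Hochberg over 14456 genes and called at 0.05. Log2 CPM used a prior count of 2. A floor of 3 counts stood for a group at 0. The scripts were tested on simulated data.

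Beyond the 8, up to 4 genes a list were named, those of the largest called organ difference in DC1 whose higher mean was 10 CPM or more, as well as the 3 genes most correlated with each. T cell genes shown by library, Itgae, Epcam (below 10 CPM) and Gp2's levels were picked after their values were seen. So were genes named because they went against the rest of their list or were not called. Alternatives were RLE scaling, DESeq2 1.42.0, no filter, filterByExpr, limma 3.58.1 on log2(TPM + 1), a fit without monocytes, a fit of only the subtypes compared, a replicate block, a minimum absolute log2 fold change of 1, and leaving out each library. Same-numbered libraries deviated together (all 3 correlations over 0.1) in 4 of 10 pairs of subtypes, those of splenic CD8+ with CD4+, LN CD103+ with CD11b+, and splenic CD4+ with either LN subtype. The pairing comes from this check and not from the labels.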

Additional observations from a re-analysis of the deposited data

Results flagged for a closer look

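For 4 of the 8 genes the organ effect differed between the lineages by a test of the difference itself, the interaction of organ and lineage in edgeR. The DC1 effect minus the DC2 effect was -7.17 for Cd8a, -3.91 for Xcr1, -1.75 for Clec9a and -1.31 for Cadm1, on the log2 scale. Cd8a was lower in all 3 LN CD103+ libraries than in any splenic CD8+ library and higher in all 3 LN CD11b+ libraries than in any splenic CD4+ library. CD8 protein was a sort marker of the splenic DC1, so the Cd8a difference holds the sort as well. The T cell genes Lck and Cd3g were also higher in both LN subtypes than in the splenic DCs. The part of T cells in this result was not tested.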

How the results depend on the processing

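Over 919 fold changes of the 8 genes under the alternatives, 898 kept their direction and their side of the threshold, 9 passed it, 6 no longer passed it and 6 turned. Those that turned were not called on either side. Sec22b between DC1 of the organs was -0.0268 in limma and ranged from -0.0441 (without LN CD103+ DC replicate 2) to 0.167 with 1 library left out, with -0.00118 without splenic CD8+ DC replicate 2. Xcr1 between DC2 of the organs was -0.175 without splenic CD4+ DC replicate 3 and -0.315 without LN CD11b+ DC replicate 3 (highest 0.768), and the interaction for Cd207 ranged from -2.99 to 0.495 with 1 library left out, the latter without LN CD11b+ DC replicate 2, which held both counts of that group. Genes called between splenic CD8+ and CD4+ DCs numbered 2600, against 3966, when only those subtypes were fitted, and 2643 at a minimum absolute log2 fold change of 1; in the LN pair they ranged from 1216 to 2171, against 1872, with 1 library left out. Of the 8 genes, 2 rather than 4 were lower in LN CD11b+ than in splenic CD4+ DCs when only those subtypes were fitted. The number in their place in the order of falls ranged from 6 to 8 with 1 library left out and was 8 with RLE scaling, DESeq2, limma, the fit without monocytes, the fit of only the subtypes compared and the replicate block; it was not taken for the other filters or the minimum fold change. List counts between DC1 of the organs ranged, with 1 library left out, from 2 to 4 (SNARE, higher), 1 to 3 (Rab, higher), 1 to 2 (BEACH, higher), 0 to 1 (nectin-like, lower), 0 to 1 (migratory, lower), 0 to 1 (plasmacytoid, higher), 1 to 5 (B cell, higher), 0 to 2 (B cell, lower) and 1 to 4 (NK, higher). With the replicate number as a block, 7063 genes were called between DC1 of the organs, 4645 between the splenic and 2339 between the LN subtypes, 5343 between DC2 and 2152 in the interaction; of the calls on the 8 genes it changed only that of Sec22b between DC2 (-0.473), and no other. The causes were not tested. No scaling moved the median of all genes by over 0.1. Depth limits Cd207 most, with at most 34 counts in an LN library.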
